A study of Mus musculus with 4 samples.

Results

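The 7 genes Cav1, Cav2, Cavin1, Cavin2, Cavin3, Ehd2 and Plvap, which encode the coat, the neck and the diaphragm of endothelial caveolae, were followed across the cell classes of the mouse left ventricle. They were chosen by gene symbol, each matched 1 of the 31253 gene rows, and all 7 had UMIs (unique molecular identifiers, each marking 1 captured transcript) in capillary, artery, vein, lymphatic and endocardial endothelial cells (ECs). Caveolae are small flask-shaped pits of the plasma membrane that are abundant in the continuous capillaries of the heart. Caveolin-1, with caveolin-2, inserts into the membrane, cavin-1 assembles the coat around it with cavin-2 and cavin-3, and the ATPase EHD2 holds the neck of the pit at the surface. PLVAP forms the diaphragm across the neck of caveolae and across fenestrae in some vessels, and is known to be scarce in heart capillaries.

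RFP-positive cells were sorted from left ventricles and sequenced with the 10x Genomics Chromium 3′ assay in 4 libraries, 2 from NC mice and 2 from HFpEF mice. The NC diet held 10% of its energy as fat, and the HFpEF diet held 60% and came with L-NAME, an inhibitor of nitric oxide synthases, at 0.5 mg/ml in the drinking water, for 20 weeks. All mice carried a tamoxifen-inducible Cre under the Cdh5 promoter, a tdTomato reporter at Rosa26 and floxed Scarb1, so tdTomato marks cells in which Cdh5-driven Cre was once active and not only cells that are endothelial at sorting. The library labels give the diet. The paper's single-cell comparison had 4 groups, both diets crossed with 2 Scarb1 genotypes (fl/fl and fl/+). With 4 libraries, the libraries of a diet may thus be 1 of each genotype, with no replicate of a group. Which library has which genotype, the number of mice in it and their age are not given in the sources used here, so the spread within a diet may hold the difference between genotypes. Differences between the diets are therefore differences between 2 and 2 libraries, and their p-values measure the spread between these libraries only.

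Cells with more than 200 genes and less than 20% of UMIs from mitochondrial genes were kept, 5454 to 20882 per library, and their median depth was 3754 and 4127 UMIs (NC) against 1736.5 and 1619 UMIs (HFpEF). Depth per cell and diet therefore cannot be told apart in unthinned counts. Library pairs shared 10 to 42 barcode sequences, less than 1% of the barcodes of either library. Scarb1, the gene targeted in the mice, had 108.8 and 45.1 CPM (UMIs of a gene scaled to a common total of UMIs in the same cells) in ECs of NC libraries 1 and 2 and 110.6 and 51.4 CPM in those of HFpEF libraries 1 and 2, so it was lower in library 2 of each diet. Counting of 3′ ends does not read the floxed exon, which lies near the other end of the gene, and a further gene overlaps Scarb1 on the same strand, so this level was not used to assign genotypes. The paper reports lower Scarb1 in capillary ECs of fl/fl than of fl/+ mice within each diet. Clusters were named from marker lists, with the 7 genes kept out of the clustering, so each name stands for cells like that class. Capillary ECs numbered 3863 to 14760 cells per library, artery ECs 651 to 3110, vein ECs 243 to 936, lymphatic ECs 11 to 46, endocardial ECs 19 to 78 and mural cells 241 to 657. The leading genes of the endocardial subclusters held vein markers such as Vwf beside endocardial ones (Npr3, Tmem108, Cdh11). Those of some subclusters also held Lum or Dcn, and Dcn was a leading gene of the fibroblasts too. These cells, 19 to 78 per library, were therefore not tested between diets. In the capillary class, clusters 3 and 4, led by Adm and Timp4, held most NC cells, whereas clusters 0, 1 and 5, led by Pth1r, by Tnfsf9 and by Cngb1, held most HFpEF cells.

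On GRCm38, Cav2 (ENSMUSG00000000058; chromosome 6, 17281185 to 17289115, plus strand) and Cav1 (ENSMUSG00000007655; 17306335 to 17341452, plus strand) are neighbours, with 17219 bases between them. Cavin2 (ENSMUSG00000045954) lies on chromosome 1 from 51289126 to 51302960, Cavin1 (ENSMUSG00000004044) on chromosome 11 from 100956733 to 100970887, Cavin3 (ENSMUSG00000037060) on chromosome 7 from 105480083 to 105482300, Ehd2 (ENSMUSG00000074364) on chromosome 7 from 15946958 to 15967567, and Plvap (ENSMUSG00000034845) on chromosome 8 from 71497765 to 71511752. All 7 are annotated as protein coding, and every gene that overlaps one of them is on the opposite strand. The 250 bases before the start of Cav2 and Cav1 are shown because the levels of these neighbours ran in the same order across EC classes, and those before Cavin2 because its order differed. They are RefSeq sequences on the plus strand of GRCm38.p6, from 17280935 to 17281184 and from 17306085 to 17306334 on chromosome 6 and from 51288876 to 51289125 on chromosome 1. Capitals mark the GC box GGGCGG on either strand.
Cav2: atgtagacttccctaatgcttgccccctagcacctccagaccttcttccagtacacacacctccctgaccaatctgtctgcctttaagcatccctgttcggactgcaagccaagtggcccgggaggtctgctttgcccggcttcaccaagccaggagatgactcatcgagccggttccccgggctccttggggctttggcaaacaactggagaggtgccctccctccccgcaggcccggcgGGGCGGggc
Cav1: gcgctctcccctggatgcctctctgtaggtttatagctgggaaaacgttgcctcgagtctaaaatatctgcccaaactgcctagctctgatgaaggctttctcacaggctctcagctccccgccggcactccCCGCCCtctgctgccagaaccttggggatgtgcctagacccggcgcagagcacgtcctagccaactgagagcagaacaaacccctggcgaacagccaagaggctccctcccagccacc
Cavin2: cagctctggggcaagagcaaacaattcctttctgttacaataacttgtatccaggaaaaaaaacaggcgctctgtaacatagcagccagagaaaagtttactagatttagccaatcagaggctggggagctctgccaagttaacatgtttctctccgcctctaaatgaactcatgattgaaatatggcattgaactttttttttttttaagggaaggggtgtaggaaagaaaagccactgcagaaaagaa
The GC box stood once before Cav2 and once before Cav1 and not in these bases of Cavin2, and 32.9% of 27025 promoters of this length held it. The CCAAT box (CCAAT, either strand) stood once before Cav2 and once before Cavin2 (34.5% of promoters), and a TATA box (TATAAA, either strand) once before Cav1 (12.97% of promoters). The G and C content of these bases was 62.0% for Cav2, 59.6% for Cav1 and 40.4% for Cavin2. The table also held a second Cav1 start, with the 250 bases from 17307390 to 17307639 before it, which had 0 of each of these boxes and 60.8% G and C. Of the other 4 genes, Cavin1 and Ehd2 had a promoter in the table. Their order across EC classes also differed from that of Cav1, with vein ECs highest for Cavin1 and artery ECs for Ehd2. Each of these promoters held 1 GC box, 1 CCAAT box and 0 TATA boxes, with 67.6% (Cavin1) and 58% (Ehd2) G and C. The median G and C content of the 27025 promoters was 52%. Whether these bases bear on the order of levels was not tested.

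The first comparison was of the coat genes along the vascular tree. Capillary, vein and artery ECs had similar summed levels of the 6 genes other than Plvap, and endocardial ECs had the lowest. Capillary ECs had 4915, 5352, 4999 and 4949 CPM of the 6 genes in NC libraries 1 and 2 and HFpEF libraries 1 and 2. Vein ECs had 4924 ± 228 CPM and artery ECs 4610 ± 153 CPM (mean ± SD, n = 4 libraries, as for all such values below), and vein ECs overlapped with both other classes, whereas every artery value lay below every capillary value. The log2 ratio to capillary ECs within a library was -0.04 ± 0.06 for vein, -0.13 ± 0.05 for artery and -1.001 ± 0.17 for endocardial ECs. Endocardial ECs had 2530 ± 235 CPM, below every other EC class in each of the 4 libraries, and lymphatic ECs 4329 ± 878 CPM. Because each transcript is counted once at its 3′ end, levels are not divided by gene length, and differences in capture between genes remain.

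**Figure D1:**
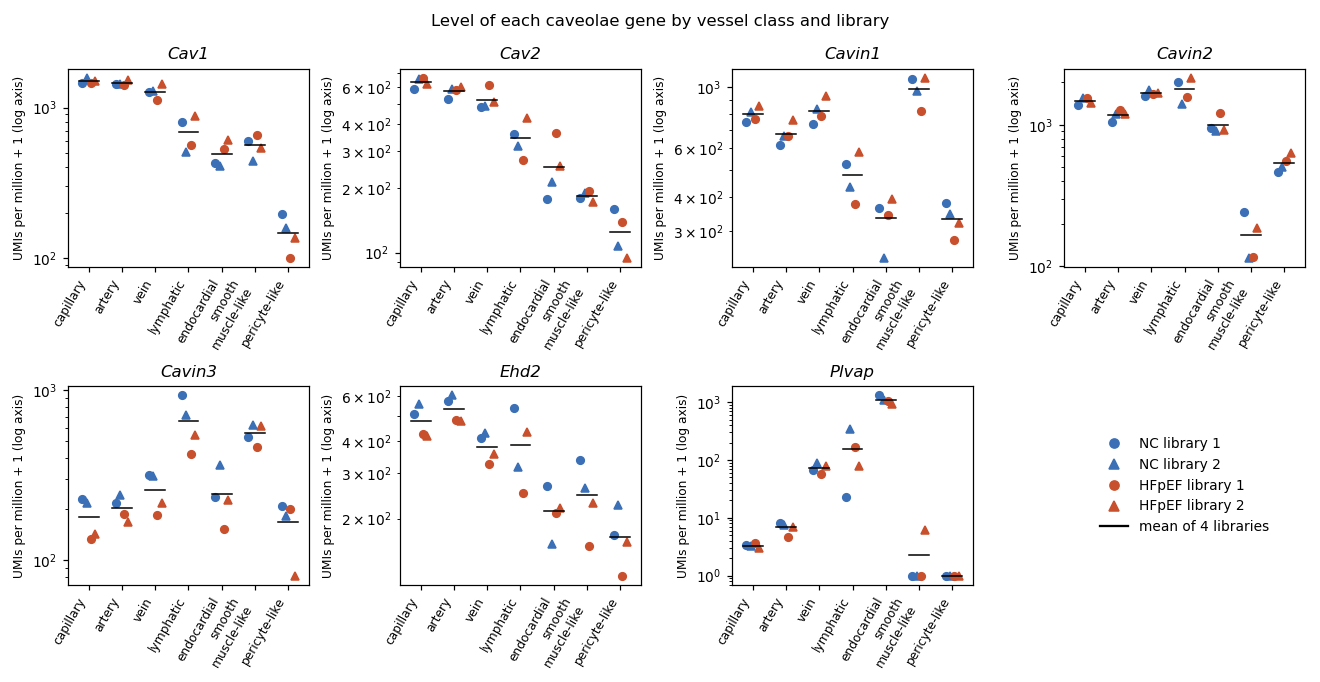
Level of each of the 7 genes (CPM plus 1, log axis) in 5 EC classes and in the smooth muscle-like and pericyte-like subclusters, with 1 point per library and a line at the mean of 4 libraries. Cav1 and Cav2 step down from capillary to endocardial ECs, Cavin3 is highest of the 5 EC classes in lymphatic ECs at 654 CPM, and Plvap goes from 2.31 CPM in capillary to 1104 CPM in endocardial ECs.

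Cav1, whose protein is required for caveolae in ECs, was at 1464, 1583, 1462 and 1502 CPM in capillary ECs of NC libraries 1 and 2 and HFpEF libraries 1 and 2. Artery ECs overlapped with capillary ECs (1451 ± 53.5 CPM), and vein ECs (1273 ± 128 CPM) lay below every capillary value and overlapped with artery ECs. Lymphatic (687 ± 179 CPM) and endocardial ECs (493 ± 94.5 CPM) lay below the 3 blood vessel classes without overlap, and lymphatic above endocardial ECs in 4 of 4 libraries. Cav2, which needs caveolin-1 to reach the plasma membrane, ran in the same order, from 628 ± 34.4 CPM in capillary through 572 ± 30.7 in artery, 522 ± 60.1 in vein and 344 ± 66.8 in lymphatic to 251 ± 79.7 CPM in endocardial ECs. Over 35 sums of a class in a library, Cav1 and Cav2 had a Pearson r of 0.94 of their log2 CPM, a description of sums that share libraries and depth.

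Cavin1, the cavin without which caveolae do not form, was at 818 ± 80.9 CPM in vein, 794 ± 47.1 in capillary and 675 ± 59.8 in artery ECs, higher in capillary than in artery ECs in 4 of 4 libraries. Within a library its log2 ratio of artery to capillary ECs was -0.24 ± 0.06 (exact two-sided sign-flip p = 0.125, the smallest p that 4 libraries allow), and that of vein to capillary ECs 0.04 ± 0.06 (exact p = 0.25). Lymphatic and endocardial ECs had 479 ± 91.0 and 334 ± 66.0 CPM.

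Cavin2, which binds membrane lipids in the coat, was higher in vein than in capillary ECs. It was at 1383, 1537, 1550 and 1423 CPM in capillary ECs, at 1585, 1771, 1653 and 1682 CPM in vein ECs, and at 1041, 1201, 1267 and 1187 CPM in artery ECs, in the same order of libraries. The 4 vein values lay above all capillary values, and the 4 artery values below them. The log2 ratio to capillary ECs was 0.18 ± 0.06 in vein and -0.33 ± 0.07 in artery ECs, each in the same direction in 4 of 4 libraries (exact sign-flip p = 0.125). Lymphatic ECs reached 1781 ± 352 CPM and overlapped with vein ECs.

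Cavin3, a cavin that joins the coat through cavin-1, was highest in lymphatic ECs among the 5 EC classes. Lymphatic ECs had 930, 718, 419 and 547 CPM, from 20 to 91 UMIs per library, above every vein value. Vein ECs had 315, 313, 185 and 215 CPM and capillary ECs 227, 215, 132 and 141 CPM, and within a library vein exceeded capillary ECs by 0.52 ± 0.06 on the log2 scale in 4 of 4 libraries (exact p = 0.125). The lymphatic excess over capillary ECs was 1.84 ± 0.18, also in 4 of 4 libraries. Artery ECs overlapped with capillary ECs, but the artery cluster 7, led by Fbln5 and Gja5, exceeded them by 0.68 ± 0.27 in 4 of 4 libraries, whereas the cluster 2, led by Hey1 and Sema3g, did not (0.00 ± 0.14). After each cell was thinned to 1000 UMIs, 38 of 83 lymphatic ECs (45.8%, exact 95% interval 34.8 to 57.1%) held a Cavin3 UMI, against 11.5 to 18.0% of capillary ECs per library and 0 of 99 leukocytes poor in EC markers, which allows a share of up to 3.66%. These intervals cover counting error only. Proliferating ECs, set apart by markers such as Mki67 and Top2a, had 598, 718.5, 584.5 and 492 CPM of Cavin3 on 17 to 196 UMIs, above capillary ECs by 1.77 ± 0.30 in 4 of 4 libraries.

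Ehd2, the neck ATPase, was highest in artery ECs. Artery ECs had 574, 603, 483 and 478 CPM and capillary ECs 508, 557, 426 and 418 CPM, and the log2 ratio was 0.17 ± 0.04, above 0 in 4 of 4 libraries (exact p = 0.125). Vein ECs had 381 ± 48.6 CPM, with a log2 ratio to capillary ECs of -0.32 ± 0.07, below 0 in 4 of 4 libraries. Endocardial ECs had 213 ± 44.9 CPM, without overlap with vein ECs, and lymphatic ECs spread from 251 to 536 CPM.

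**Figure D2:**
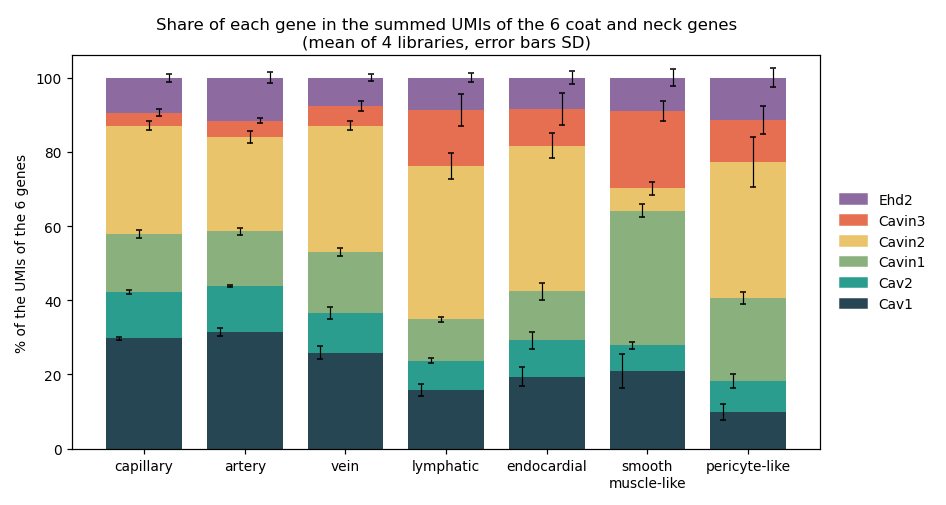
Share of each of the 6 genes other than Plvap in their summed UMIs (y axis, %), stacked by gene for 5 EC classes and 2 mural subclusters, as means of 4 libraries with SD. Cav1 and Cavin2 each hold close to 30% in capillary ECs, and Cavin1 (36.3%) and Cavin3 (20.8%) are large in the smooth muscle-like subcluster.

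The make-up of the coat transcripts also differed between classes. Cav1 made up 29.7 ± 0.46% of the UMIs of the 6 genes in capillary, 31.5 ± 1.06% in artery and 25.8 ± 1.74% in vein ECs, but 15.8 ± 1.60% in lymphatic and 19.4 ± 2.63% in endocardial ECs. Cavin2 was the largest part in vein (34.0 ± 1.19%), lymphatic (41.3 ± 3.52%) and endocardial ECs (39.2 ± 3.33%). Cavin3 was 3.53 ± 0.95% in capillary and 15.1 ± 4.26% in lymphatic ECs.

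Plvap, the diaphragm gene, was close to 0 in capillary ECs and highest in endocardial ECs. It was used neither to cluster nor to name the cells. Capillary ECs had 2.35, 2.23, 2.61 and 2.06 CPM, from 19 to 63 UMIs per library, and artery ECs 3.74 to 7.17 CPM. Vein ECs had 66.2, 86.3, 56.5 and 76.2 CPM, and endocardial ECs 1306, 1110, 1066 and 936 CPM. The 4 classes did not overlap. The log2 ratio to capillary ECs was 4.43 ± 0.35 in vein and 8.38 ± 0.18 in endocardial ECs, above 0 in 4 of 4 libraries (exact p = 0.125 each). Lymphatic ECs varied from 21.9 to 339 CPM on 2 to 43 UMIs. In cells thinned to 1000 UMIs, 57.4% of 183 endocardial ECs (49.9 to 64.6%) held a Plvap UMI. The share was 0.165 to 0.308% of capillary ECs per library and 0 of 99 leukocytes poor in EC markers (up to 3.66%). The capillary share is thus not distinguished from that of these leukocytes at this depth.

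The genes whose pattern over the 35 sums was most like that of Cav1, among 8465 genes of at least 10 CPM on average, were Cdh5, which encodes VE-cadherin (r = 0.95), Clic5 (0.94), Cav2 (0.94), Cyyr1 (0.93) and Adgrl4 (0.93). For the sum of the 6 genes they were Abcg2 (0.94), Egfl7 (0.93), Clic5 (0.92), Kank3 (0.91) and Rasip1 (0.91), and for Plvap they were Il6st (0.89), Ptpn14 (0.88), Gpm6a (0.88), Pkhd1l1 (0.87) and Ece1 (0.87). The sums include mural cells and leukocytes, so r also holds the contrast of ECs with other cells.

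Mural cells, the pericytes and smooth muscle cells around the vessels, also build caveolae. Most cells of the mural clusters carried EC markers as well: in 5 of 7 mural subclusters Pecam1 and Cdh5 together reached 56.4 to 94.2% of the capillary level, and whether these were droplets with an EC and a mural cell was not tested. Only the pericyte-like subcluster, led by Vtn and Kcnj8 (191 cells), and the smooth muscle-like subcluster, led by Acta2 and Tagln (152 cells), had less than 10% of it (6.45% and 5.52%). The whole class named mural cells had 18610 to 19525 CPM of 9 capillary EC markers per library, beside 11391 to 13415 CPM of 8 pericyte markers. Values of mural cells below therefore also hold transcripts of EC genes. The smooth muscle-like subcluster had 14223 to 19920 CPM of 6 smooth muscle markers, and also 14533 to 19482 CPM of 8 pericyte markers. In the pericyte-like subcluster these were 937 to 1571 CPM and 22235 to 27379 CPM. The 2 subclusters thus shared pericyte markers and differed in smooth muscle markers. For comparison, B and T cells poor in EC markers had 47.6 CPM of Cav1, 53.9 CPM of Cavin1, 66.6 CPM of Cavin2 and 0 UMIs of Cavin3 among 315198 UMIs. These leukocytes were chosen by Pecam1 and Cdh5 under 10% of the capillary level, which favours low levels of EC genes. All B cells and all T cells had 843 and 527 CPM of Cav1. The source of these UMIs was not tested.

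The smooth muscle-like subcluster held 13 to 76 cells per library. Its cells had 1066, 965, 814 and 1080 CPM of Cavin1 and 528, 626, 465 and 618 CPM of Cavin3 in NC libraries 1 and 2 and HFpEF libraries 1 and 2. Against capillary ECs of the same library, Cavin3 was higher by 1.67 ± 0.39 and Cavin1 by 0.30 ± 0.18 on the log2 scale, each in 4 of 4 libraries (exact p = 0.125), whereas Cav1 (-1.44 ± 0.30) and Cavin2 (-3.22 ± 0.61) were lower in 4 of 4. Cavin1 and Cavin3 made up 36.3 ± 1.86% and 20.8 ± 2.76% of the 6 genes' UMIs there, and Cavin2 6.02 ± 1.75%.

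In pericyte-like cells Cavin2 was the largest part. They had 464, 501, 555 and 629 CPM of Cavin2, which was 36.7 ± 6.71% of the 6 genes' UMIs, and 195, 157, 99.2 and 134 CPM of Cav1. Compared within a library, smooth muscle-like cells exceeded pericyte-like cells by 1.96 ± 0.55 for Cav1, 1.57 ± 0.12 for Cavin1 and 1.82 ± 0.78 for Cavin3, and Cavin2 differed by -1.76 ± 0.59, each in 4 of 4 libraries (exact p = 0.125). Plvap had 0 UMIs in pericyte-like and 1 UMI in smooth muscle-like cells. The 2 subclusters together held 22 to 129 UMIs of Cav1 and 31 to 107 UMIs of Cavin2 per library, so their ratios rest on few UMIs.

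The second comparison was of HFpEF with NC within each class. None of the 7 genes passed the test. The genes with both HFpEF libraries below both NC libraries in each of capillary, artery, vein and mural cells were Cavin3 and Ehd2. Taken singly, these classes had 25.7%, 23%, 20.7% and 20.7% of all genes tested with both HFpEF libraries below. The share of all genes below in every class is not given here, so this count is a description only. In capillary ECs the log2 fold change of HFpEF over NC was -0.03 ± 0.11 (SE) for Cav1, 0.06 ± 0.12 for Cav2, 0.07 ± 0.11 for Cavin1 and 0.04 ± 0.12 for Cavin2, with Benjamini-Hochberg adjusted p from 0.79 to 0.91 (edgeR, quasi-likelihood test). Over capillary, artery, vein and mural cells the log2 fold changes ran from -0.03 to 0.13 for Cav1, 0.06 to 0.29 for Cav2, 0.07 to 0.16 for Cavin1 and -0.01 to 0.21 for Cavin2.

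**Figure D3:**
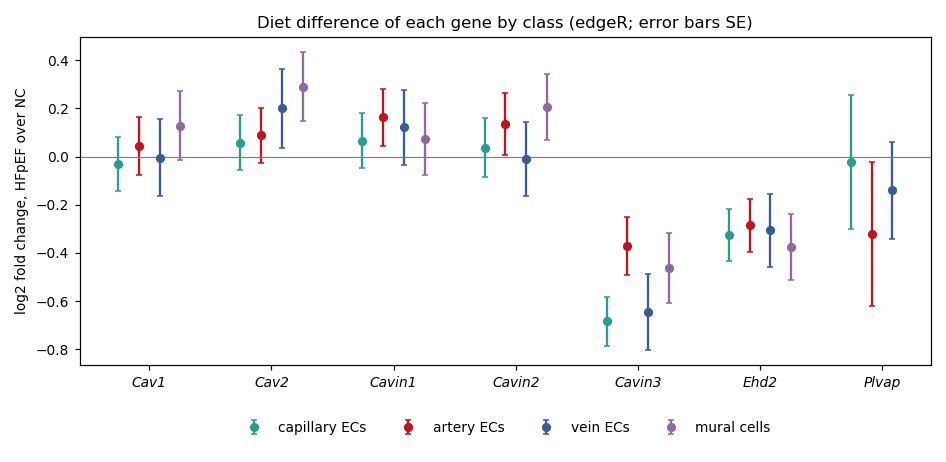
Log2 fold change of HFpEF over NC (y axis) for each of the 7 genes (x axis) in capillary, artery, vein and mural cells, from edgeR, with SE bars and a line at 0. Cavin3 lies between -0.68 and -0.37 and Ehd2 between -0.38 and -0.29, Cav1, Cav2, Cavin1 and Cavin2 lie between -0.03 and 0.29, and Plvap was not tested in mural cells.

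Cavin3 in capillary ECs had 227 and 215 CPM (NC) against 132 and 141 CPM (HFpEF). The 2 groups did not overlap, and the log2 fold change was -0.68 ± 0.10 (SE), with an adjusted p of 0.077 (edgeR), so that it was not called. DESeq2 called it (log2 fold change -0.69, adjusted p = 5.3e-05), as did edgeR on cells thinned to 1000 UMIs (-0.62, adjusted p = 0.040) and edgeR without a filter on low counts (-0.70, adjusted p = 9.7e-06), and over all 15 alternatives it ran from -0.73 to -0.62, with adjusted p up to 0.17.

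In the other classes Cavin3 also had both HFpEF libraries below both NC libraries. The log2 fold change was -0.37 ± 0.12 in artery (adjusted p = 0.25, edgeR), -0.65 ± 0.16 in vein (0.17) and -0.46 ± 0.14 in mural cells (0.17), none of them called. The difference between artery and capillary ECs was 0.29 ± 0.12, with an adjusted p of 0.80 for the interaction, so that the sizes were not shown to differ. In the mural subclusters poor in EC markers the fold change was -0.05, from 289 to 467 CPM per library, with overlapping diets and 47 to 136 cells per library, and was not called (edgeR).

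Ehd2 in capillary ECs had 508 and 557 CPM (NC) against 426 and 418 CPM (HFpEF), also without overlap. Its log2 fold change was -0.33 ± 0.11 in capillary (adjusted p = 0.19, edgeR), -0.29 ± 0.11 in artery (0.30), -0.31 ± 0.15 in vein (0.58) and -0.38 ± 0.14 in mural cells (0.29). It was not called in any class, and no alternative called it.

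Across capillary ECs, DESeq2 called 1 of the 7 genes (Cavin3), among 253 genes that it called of 18279 with a UMI in this class. Without a filter on low counts, edgeR called Cavin3 among 1106 of 18279 genes. In the main edgeR test 0 of the 7 were called, where 0.00815% of 12277 genes were called. The alternatives that called Cavin3 thus also called more of the other genes. An unadjusted p under 0.05 was found for 2 of 7, Cavin3 and Ehd2, both lower in HFpEF, beside 18.3% of all genes in either direction and 8.7% of all genes in that direction. Both HFpEF libraries lay below both NC libraries for 2 of 7 genes (25.7% of all genes) and above them for 0 (24.6%). The median log2 fold change of the 7 genes was -0.02, beside -0.0034 for all genes.

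In artery, vein and mural cells 0 genes of the 7 were called by edgeR or by DESeq2, where edgeR called 0.188%, 0.0865% and 0.641% of all genes. Unadjusted p under 0.05 was found for 2, 1 and 2 of them (14.4%, 9.19% and 11% of all genes), all lower in HFpEF (6.61%, 4.04% and 4.8%). Both HFpEF libraries were below both NC libraries for 3 of 7 in artery ECs (23%), 2 of 7 in vein ECs (20.7%) and 2 of 6 in mural cells (20.7%), and above them for 3, 1 and 2 genes (23.7%, 20.3% and 20.1%). In the tests of a diet difference between classes, edgeR called 0 of the 7 (background 0.171%, 0.0538% and 0.574% of genes for artery, vein and mural cells against capillary ECs). The unadjusted p was under 0.05 for Cavin3 in artery ECs, beside 584 of 11143 genes. It was also under 0.05 for Cav2 in mural cells, beside 877 of 11143 genes, and for no member in vein ECs, beside 628.

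**Figure D4:**
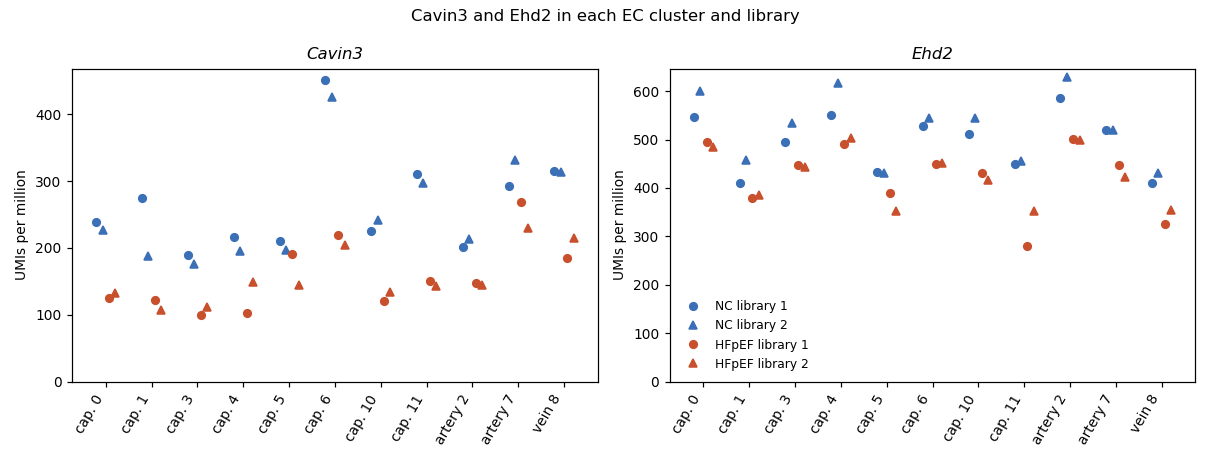
CPM of Cavin3 (left) and Ehd2 (right) in each of 8 capillary, 2 artery and 1 vein cluster, with 1 point per library. Both HFpEF libraries lie below both NC libraries in all 11 clusters for both genes.

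Since different clusters held most capillary cells of the 2 diets, Cavin3 was also compared within clusters. In all 11 clusters of capillary, artery and vein ECs both HFpEF libraries lay below both NC libraries, for Cavin3 (log2 difference from -1.05 to -0.29) and for Ehd2 (-0.53 to -0.18). Of the 12277 genes tested in capillary ECs 0.285% did so in all 11 clusters, and 1.78% of the 1464 genes of at least 100 CPM. The clusters come from the same 4 libraries and are not independent of each other, and this breakdown was chosen after the values were seen. The widest gap of Cavin3 was in capillary cluster 6, led by Apln and Pgf, with 451 and 426 CPM (NC) against 219 and 204 CPM (HFpEF), and the narrowest in cluster 5, whose median depth was 799 UMIs, with 211 and 197 CPM against 191.5 and 144 CPM. Cav1, Cav2, Cavin1 and Cavin2 had both HFpEF libraries below both NC libraries in 1, 0, 0 and 0 of the 11 clusters, and above them in 4, 8, 5 and 9. The share of all genes with such counts is not given here, so the counts are a description only. Cavin2 was above in 8 of 8 capillary clusters, by 0.15 to 0.52 on the log2 scale, as were 0.676% of all genes tested and 3.07% of those of at least 100 CPM, whereas its fold change over the whole capillary class was 0.04 ± 0.12. This count, too, was chosen after the values were seen.

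The share of cells with a UMI gave the same order. In capillary ECs thinned to 1000 UMIs, 18.0% (16.9 to 19.2%) and 17.8% (16.6 to 19.0%) of NC cells and 11.5% (10.4 to 12.6%) and 12.4% (11.8 to 13.03%) of HFpEF cells held a Cavin3 UMI (exact 95% intervals). Before thinning, the shares were 47.8 and 50.3% against 19.1 and 20.7%, at median depths of 3685.5, 4038, 1687 and 1497 UMIs. For Ehd2 the thinned shares were 39.0 and 42.1% (NC) against 34.2 and 33.7% (HFpEF), and for Cav1 73.6 and 75.8% against 73.4 and 74.5%. Thinning kept 4248 of 4396 and 3998 of 4089 capillary ECs (NC) and 3252 of 3863 and 10980 of 14760 (HFpEF).

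Summed levels of other cell types' markers in capillary ECs also differed between libraries. The 5 erythroid markers had 369 and 349 CPM (NC) against 804 and 3749 CPM (HFpEF). The 6 cardiomyocyte markers had 77.1 and 48.6 CPM against 214 and 78.8 CPM, so HFpEF library 2 was close to NC library 1. The 6 macrophage markers were lower in HFpEF (27.3 and 21.4 CPM against 18.1 and 16.4 CPM). The 8 pericyte markers overlapped (147 and 148 CPM against 182 and 113 CPM). None of the erythroid and cardiomyocyte markers was at 0. Cells of 1% or more hemoglobin UMIs numbered 9 and 8 (NC) and 14 and 294 (HFpEF) over all classes. Without them, Cavin3 in capillary ECs had a log2 fold change of -0.68. Depth entered only through the thinned values above. The part of genotype, sorting and RNA from other cells in the difference was not tested.

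Plvap was lower in HFpEF when all ECs were summed, without passing the test. All ECs had 21.6 and 20.8 CPM (NC) against 12.8 and 13.2 CPM (HFpEF), a log2 fold change of -0.69 ± 0.11 (adjusted p = 0.087 by edgeR, not called, and 0.024 by DESeq2, called). In that sum fewer cells of a class and less RNA per cell cannot be told apart. Within capillary, artery and vein ECs the log2 fold change was -0.02 ± 0.28, -0.32 ± 0.30 and -0.14 ± 0.20 (adjusted p = 0.98, 0.66 and 0.87). Across all ECs, DESeq2 called 2 of 7 genes (Cavin3 and Plvap), among 297 genes that it called of 19136 with a UMI there. By edgeR 0 of 7 were called, beside 0.0615% of all genes. There 3 of 7 had an unadjusted p under 0.05 (18.4% of all genes), all lower in HFpEF (8.84%), and both HFpEF libraries lay below both NC libraries for 3 (26.2%) and above them for 1 (25.1%).

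**Figure D5:**
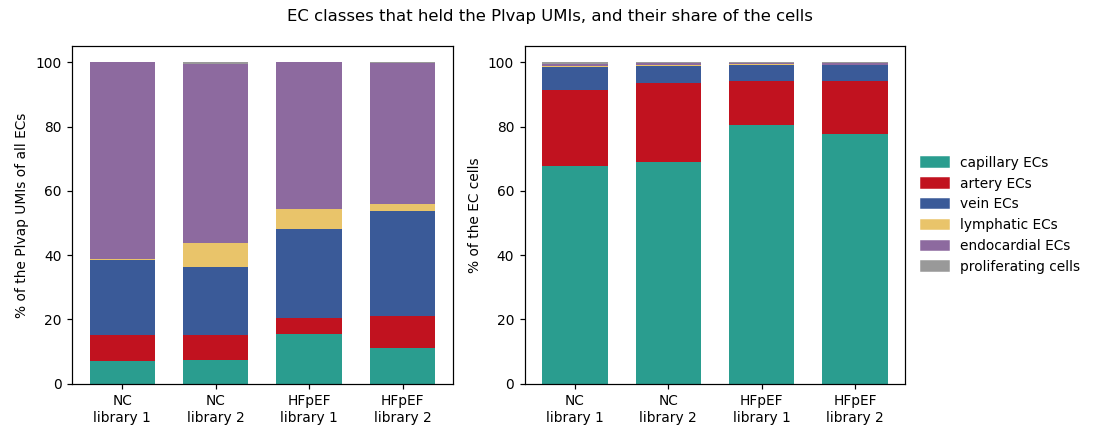
Left, the share of the Plvap UMIs of all ECs that each class held, by library (y axis, %); right, the share of EC cells in each class. Endocardial ECs held 44.0 to 61.1% of the Plvap UMIs with 0.396 to 0.793% of the cells.

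The UMIs of Plvap came from few cells. Endocardial ECs held 61.1% and 55.8% (NC) against 45.5% and 44.0% (HFpEF) of the Plvap UMIs, while they were 0.662% and 0.793% against 0.396% and 0.411% of the ECs. Vein ECs held another 21.2 to 32.7%. They were 7.33% and 5.16% (NC) against 5.07% and 4.93% (HFpEF) of the cells. The endocardial level itself was not tested between diets.

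Around the coat, 4 lists of related genes were read in the same capillary test, in each of which edgeR called 0 genes, beside a median log2 fold change of -0.0034 over all genes. An unadjusted p under 0.05, by which members of the lists were counted, was found for 18.3% of all genes and 8.7% with a lower level in HFpEF. Of the 16 genes of caveola assembly and neck besides the 7, 12 were tested, with a median of -0.07, and 3 had an unadjusted p under 0.05, all lower in HFpEF. They were Ehd1, an EHD2 relative (-0.66 ± 0.13, adjusted p = 0.098), and the flotillins Flot1 (-0.39 ± 0.15, adjusted p = 0.22) and Flot2 (-0.43 ± 0.15, adjusted p = 0.19), which form membrane domains apart from caveolae. Ehd1 had 405 and 331 TMM-scaled CPM (NC) against 245 and 222 (HFpEF), with no overlap. Of the 18 receptors, channels and enzymes known in endothelial caveolae, 15 were tested, with a median of 0.08, 2 higher and 2 lower at an unadjusted p under 0.05.

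In that list the water channel Aqp1 had 2248, 2367, 1614 and 1240 TMM-scaled CPM (log2 fold change -0.69 ± 0.15, adjusted p = 0.11), the endothelin receptor Ednrb 151, 139, 208 and 207 CPM (0.51 ± 0.10, adjusted p = 0.098), and the arginine transporter Slc7a1 a log2 fold change of 0.30 ± 0.14 (adjusted p = 0.31). Ednrb was called in artery ECs (82.4, 74.1, 151 and 145 CPM; 0.92 ± 0.12, adjusted p = 0.020, edgeR), the 1 called gene of the 4 lists in the EC classes. Of the 10 genes of endothelial transcytosis and its brakes, 8 were tested, with a median of -0.09, 1 higher and 2 lower at an unadjusted p under 0.05. Gpihbp1, which carries lipoprotein lipase across capillary ECs, had a log2 fold change of -0.44 ± 0.12 (adjusted p = 0.14) and the IgG receptor Fcgrt -0.67 ± 0.16 (adjusted p = 0.12). All 16 genes of the clathrin coat and its adaptors, the other main route of endocytosis, were tested, with a median of -0.03, 2 higher and 0 lower at an unadjusted p under 0.05, among them Dab2 (0.35 ± 0.10, adjusted p = 0.16) and Cltc (0.33 ± 0.11, adjusted p = 0.18), with Ap2m1 at -0.28 ± 0.13 (adjusted p = 0.29).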

How the data were processed

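scecRNA-seq data of 4 libraries (2 NC, 2 HFpEF) were used as deposited: UMI counts per gene and cell, which the authors made with fastp and Cell Ranger 5.0.1 on mm10 with Ensembl genes and did not divide by library size. The paper describes downsampling of samples by mapped reads per cell on the way to an aggregated matrix. Whether the deposited counts were downsampled was not tested, and their depth per cell differed between the diets. Cells outside the authors' stated limits (more than 200 genes, less than 20% of UMIs from mitochondrial genes) were removed, since the deposited matrices still held them. Cells were clustered on the 2000 most variable genes, without the 7 caveolae genes, Scarb1, mitochondrial and hemoglobin genes, with 10 principal components, 20 neighbours and Louvain clustering at resolution 0.8 (python-igraph 0.11.9, Python 3.11.15). A cluster was named by the class with the most markers among its 10 leading genes, and as capillary where there were none. Proliferating cells were set apart by 2 or more of their markers, and a low-depth cluster led by hemoglobin genes was left out of the ECs. These rules were set on the data.

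Counts were summed per library and class and tested with edgeR 4.0.16 (quasi-likelihood test, TMM, filterByExpr, Benjamini-Hochberg adjustment over all genes, called under 0.05), with DESeq2 1.42.0 as an alternative. Class levels were compared as log2 ratios within libraries with a prior of 1 CPM and an exact two-sided sign-flip permutation test. Doublets were kept and left out in an alternative by Scrublet (scanpy 1.11.5), whose automatic threshold called 0, 0, 0 and 1859 cells, so that the highest scores at 0.8% per 1000 cells were called (406, 359, 238 and 3488). On counts simulated for capillary ECs (12277 genes), 136 of 200 genes changed by a log2 fold of 1 were recovered, with 13 false calls among 149. With a log2 fold of 2, 192 of 200 were recovered, with 16 false calls among 208. Smaller folds, such as those of Cavin3 and Ehd2, were not simulated, so how often they would be called is not known.

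The members and gene lists were chosen with earlier results of these data known. The text names the 7 genes and Scarb1, each list gene called in capillary or all ECs and otherwise the 3 list genes with the largest change in capillary ECs, and the 5 genes most like Cav1, Plvap and the sum of the 6. Some items that this rule names are not reported here. Ednrb in artery ECs and the overlap counts were named after their values were seen. Genotypes were not compared. Positions are from GENCODE (GRCm38) and promoters from RefSeq.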

Additional observations from a re-analysis of the deposited data

Results flagged for a closer look

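The cells led by hemoglobin genes entered no comparison. Their pooled Cav1 level was 1354 CPM, against 47.6 CPM in leukocytes poor in EC markers, and their Pecam1 and Cdh5 together reached 85.6% of the capillary level. A B cell-like subcluster of 95 cells, also in no comparison, had 1112 CPM of Cav1 and 75.7% of the capillary level of Pecam1 and Cdh5. Whether these are droplets with more than 1 cell was not tested.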

How the results depend on the processing

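Of 495 log2 fold changes of the 7 genes under alternatives, over 34 pairs of gene and class, 446 kept their direction and side of the threshold, 10 gained a call, 0 lost one and 39 changed sign; the cause was not tested. The number of the 7 genes called went from 0 to 2 in all ECs with DESeq2, without a filter on low counts and with the replicate block (Cavin3 and Plvap each time), from 0 to 1 (Cavin3) in capillary ECs with DESeq2, without the filter and in cells thinned to 1000 UMIs, and from 0 to 1 (Cavin3) in vein ECs without the filter. Genes called numbered 8, 1, 21, 8 and 64 in all, capillary, artery and vein ECs and mural cells; 297, 253, 56 and 14 with DESeq2 (not vein); 908, 1106, 411, 166 and 200 without the filter; 160, 67, 123, 121 and 188 with the replicate block; 36, 101, 38 and 10 in thinned cells (not vein); 14, 36, 13 and 26 without doublets (not all ECs); 11, 12 and 63 at resolution 1.2 (capillary, artery, vein); 2, 6, 85 and 41 with per-cell gates (not capillary); 25 and 15 in vein ECs without TMM and without hemoglobin-rich cells; 14 in capillary clusters 0, 3 and 4 and 1 in mural cells poor in EC markers (both chosen after seeing the data). Leaving out any 1 of the 4 libraries gave 49 to 200, 4 to 245, 59 to 373, 42 to 77 and 102 to 155, with every lone library assumed to vary like the other diet's. The labels do not tie the replicate numbers to genotype, and the numbers were not taken to pair the libraries. Over all genes tested, deviations of same-numbered libraries from their diet means had an r of -0.04 to 0.05. Such an r cannot show a difference that few genes share, and Scarb1 was lower in library 2 of each diet. Signs changed for Cav1 in all ECs (-0.0051 with DESeq2, -0.014 without TMM, -0.011 without the filter, -0.0017 at resolution 1.2), capillary (0.014 thinned, 0.028 in clusters 0, 3 and 4), artery (-0.015 with gates) and vein ECs (0.0039 without TMM, 0.055 thinned); for Plvap in capillary (0.0013 with DESeq2, 0.0042 with the block, 0.0088 with every barcode, 0.18 in clusters 0, 3 and 4), artery (0.13 at resolution 1.2) and vein ECs (0.13 thinned, 0.25 at resolution 1.2); for Cavin2 in vein ECs (0.0093 without doublets, 0.031 thinned); for Cavin1 in vein ECs (-0.017 with gates) and mural cells (-0.025 thinned, -0.058 in those poor in EC markers); and for Cav2 in the latter (-0.090). With 1 library left out the log2 fold change ran from -0.036 to 0.036 for Cav1 in all ECs, from -0.0032 to 0.16 for Cavin2 in all ECs, from -0.013 to 0.13 for Cav2 in capillary ECs, from -0.042 to 0.11 for Cavin2 in capillary ECs, from -0.16 to 0.21 for Plvap in capillary ECs, from -0.084 to 0.023 for Cav1 in capillary ECs, from -0.16 to 0.13 for Cav1 in vein ECs, from -0.094 to 0.064 for Cavin2 in vein ECs, from -0.39 to 0.047 for Plvap in vein ECs, from -0.054 to 0.28 for Cav1 in mural cells, from -0.16 to 0.25 for Cavin1 in mural cells. The sum of the 6 genes against capillary ECs became -0.062 in artery and -0.13 in vein ECs with gates and -1.24 in mural cells poor in EC markers. The HFpEF to NC ratio of shares with a Cavin3 UMI became 0.625 at 500 UMIs, from 0.666. Of 175 ratios of single genes, 19 moved by more than 1 SD. Depth limits Plvap in capillary ECs (19 to 63 UMIs) and every gene in lymphatic and endocardial ECs and in the pericyte-like and smooth muscle-like subclusters.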
